A study of Mus musculus with 9 samples.

Results

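The Gadd45 genes and a group of p53 target genes were followed in Neuro2a, an established neuroblastoma line from mouse, over 9 expression arrays. The set was defined by 10 gene symbols, namely Gadd45a, Gadd45b, Gadd45g, Trp53, Mdm2, Ccng1, Btg2, Zmat3, Fas and Bax, and took every probe set annotated to 1 of them. It held 15 probe sets of 8 genes, among 45101 probe sets on the array and 18193 named genes. Trp53 and Bax had no named probe set and are not analysed here. Cells were harvested 48 h after siRNA was given. The siMyT1 group was depleted of Myt1, which encodes a neural zinc finger factor, the siLSD1 group was depleted of Kdm1a, which encodes the histone demethylase LSD1, and the siControl group had received control siRNA. Each group had 3 arrays, all groups were of the same established line with no other genetic change named in the labels, and a control for transfection alone is not analysed here. Whether replicates came from separate cultures is not stated, so p-values measure only the spread between these samples, which may be technical.

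Gadd45 proteins are small nuclear proteins without known enzyme activity that bind partners such as the kinase Map3k4, the Cdk1 and cyclin B1 complex, PCNA and p21, and link stress signals to growth arrest, repair and p38 or JNK signalling. Gadd45a is a direct target of p53, whereas Gadd45b and Gadd45g answer mainly to cytokine, growth factor and developmental signals. The transcription factor p53, encoded by Trp53, activates genes of arrest, repair and cell death, and among them Mdm2, whose product degrades p53 in a feedback loop. LSD1 demethylates p53 as well as histone H3.

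Promoters of 9 of the 10 genes, all but Zmat3, were found by symbol in the RefSeq promoter table of build GRCm38.p6. Those of the 3 Gadd45 paralogues are shown so that the family can be compared base by base. Each is the 250 bases before the annotated start, read 5′ to 3′ on the gene's strand. Capitals mark the octamer ATTTGCAT and the CCAAT box, on either strand. They lie at chr6:67037408-67037657 on the minus strand for Gadd45a, chr10:80929841-80930090 on the plus strand for Gadd45b and chr13:51846425-51846674 on the plus strand for Gadd45g.
Gadd45a: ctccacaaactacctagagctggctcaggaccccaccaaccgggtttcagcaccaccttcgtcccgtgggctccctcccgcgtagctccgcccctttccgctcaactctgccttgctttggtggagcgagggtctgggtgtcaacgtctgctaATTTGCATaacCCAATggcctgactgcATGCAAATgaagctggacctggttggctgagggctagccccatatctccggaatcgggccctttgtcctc
Gadd45b: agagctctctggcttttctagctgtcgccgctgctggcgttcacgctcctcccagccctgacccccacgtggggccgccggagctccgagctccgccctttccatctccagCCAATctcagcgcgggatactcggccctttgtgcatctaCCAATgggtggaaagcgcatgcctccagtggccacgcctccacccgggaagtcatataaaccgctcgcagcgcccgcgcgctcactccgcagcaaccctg
Gadd45g: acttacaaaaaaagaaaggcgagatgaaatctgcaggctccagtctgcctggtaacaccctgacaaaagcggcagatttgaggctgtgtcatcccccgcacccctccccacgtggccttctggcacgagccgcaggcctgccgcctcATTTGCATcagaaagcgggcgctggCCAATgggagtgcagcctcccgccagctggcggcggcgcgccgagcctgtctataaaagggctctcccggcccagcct

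The Gadd45a promoter held 2 octamers, beginning 97 and 70 bases before the start, with a CCAAT box between them. The Gadd45g promoter held 1 octamer and 1 CCAAT box, and that of Gadd45b held 2 CCAAT boxes and no octamer. The octamer was present in 1.6% and CCAAT in 33.8% of all 32851 promoters of this length, with no overlap between the 2 motifs in these promoters. The core AAGTTT, the type of sequence that Myt1 zinc fingers bind, was in none of the 9 promoters and in 12.8% of all. A p53 half-site was in 5 of the 9, namely those of Gadd45a, Trp53, Mdm2, Ccng1 and Bax, and in 7.13% of all. The cAMP response element TGACGTCA was in that of Btg2 alone and in 1.55% of all. All motifs were searched on both strands and were chosen after the sequences and the expression values had been seen.

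The siRNA targets moved as labelled. Myt1 in siMyT1 measured 13.5% of siControl by its brighter probe set, and Kdm1a in siLSD1 measured 15.5% and 7.59% by its 2 probe sets. The other Myt1 probe set measured 0.0605 units in siControl and 0.0735 in siMyT1, both below every array median. In siLSD1 the brighter Myt1 probe set measured 142% of siControl, from 4.90 to 6.95 units. That difference did not pass over all probe sets (limma adjusted p = 0.0956). Of 11 measured neuroblastoma markers, 10 had a mean above 1 intensity unit, the highest being Stmn2 at 52.95 units. Markers of fibroblasts, blood cells and epithelia all had means below 1 unit except Epcam at 1.19 units. Array medians lay between 0.302 and 0.424 units. Against siControl, the siMyT1 arrays had 931 genes up and 417 down, which became 1368 and 1092 after quantile normalization and 662 and 501 after median centring. For siLSD1 these numbers were 722 and 897, then 1425 and 1378, then 1103 and 564. Between siMyT1 and siLSD1 they were 2408 and 1015, then 2410 and 1921, then 1248 and 1695.

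Gadd45a was the only 1 of the 8 measured genes that passed the test in siMyT1 against siControl, and it rose (7.41% of all genes passed, 5.12% as higher and 2.29% as lower). The probe set 1449519_at measured 5.17, 5.97 and 5.46 units in the siControl arrays and 11.3, 11.9 and 12.1 in the siMyT1 arrays. In siLSD1 it measured 5.12, 4.99 and 4.58. All siMyT1 arrays lay far above the other 6, while the siLSD1 arrays lay just under the lowest control array. The means were 5.53 ± 0.41 (SD, n = 3) in siControl, 11.8 ± 0.43 in siMyT1 and 4.90 ± 0.28 in siLSD1, so that siMyT1 stood at 2.13 times control. The log2 difference, taken as log2(value + 0.196 units), was 1.06 (SE 0.07, limma adjusted p = 8.24e-06) in siMyT1 and -0.17 (SE 0.07, adjusted p = 0.209) in siLSD1. Between the knockdowns Gadd45a differed by 1.23 (SE 0.07, adjusted p = 4.84e-07). Over all alternatives run, the siMyT1 difference stayed between 1.01 and 1.12.

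**Figure D1:**
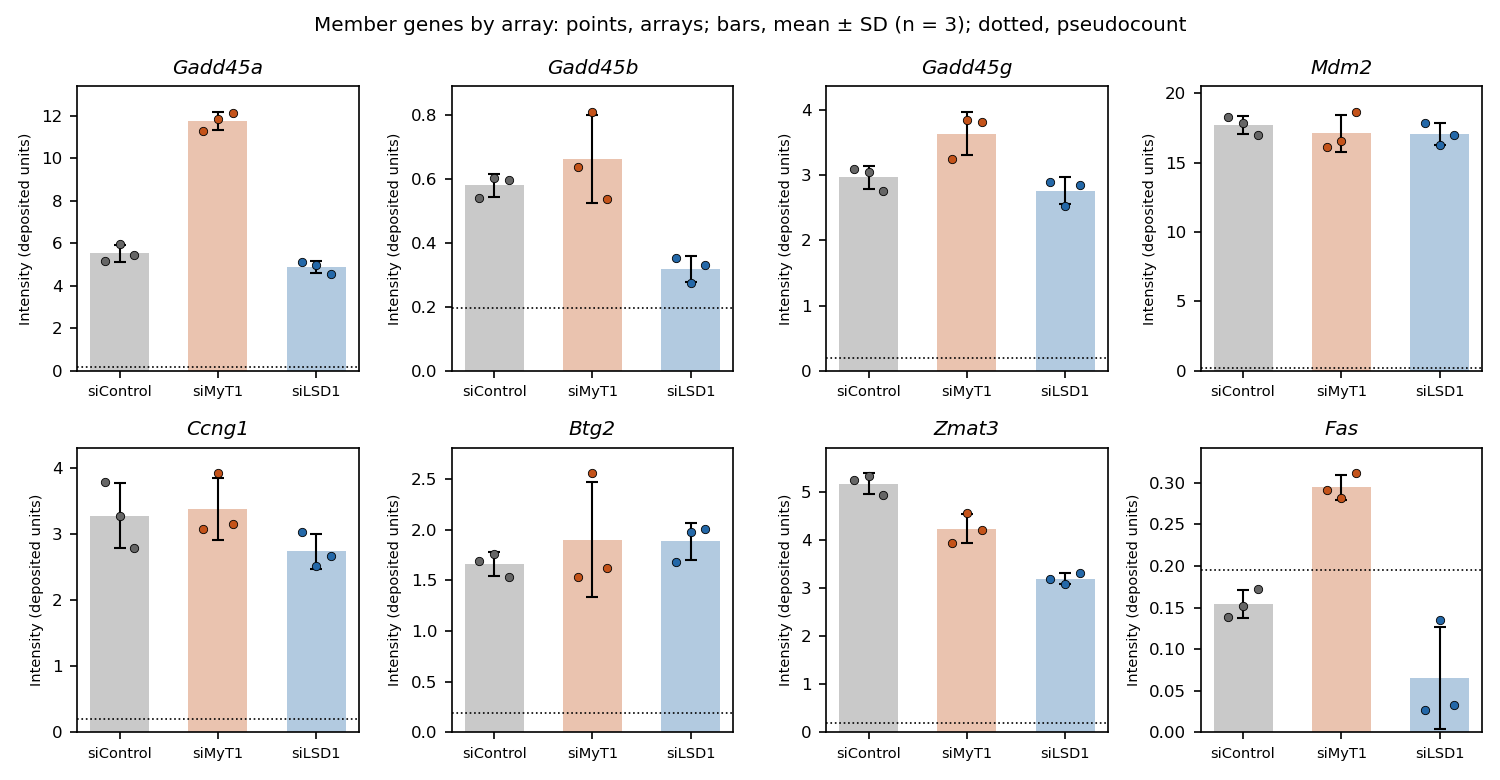
Intensity in deposited units (vertical axes, each from 0) of the 8 measured genes in the 3 groups, with a point for each array, bars at the mean and error bars of 1 SD (n = 3); the dotted line is the pseudocount of 0.196 units. Gadd45a stands at 11.3 to 12.1 units in siMyT1 and at 4.58 to 5.97 in the other arrays, and Zmat3 falls from 4.92 to 5.33 in siControl to 3.08 to 3.31 in siLSD1.

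On the same arrays the summed level of the 6 fibroblast markers was 2.15 to 2.75 units in siMyT1, 1.47 to 1.98 in siControl and 1.53 to 1.66 in siLSD1. Of these markers Dcn alone passed in siMyT1 against siControl, from 0.777 to 1.29 units (log2 difference 0.61, limma adjusted p = 0.0292). The rest did not pass (adjusted p from 0.510 to 0.957), and Lum was slightly lower (-0.03). None of these fibroblast markers was at 0 on average, but the lowest mean, 0.137 units, lay below the pseudocount of 0.196 units and below every array median. So did the siControl means of Col1a1 (0.145 units), Col3a1 (0.150), Lum (0.132) and Pdgfra (0.174). The summed level of 11 neuroblastoma markers was 188 to 199.9 units in siMyT1, 238 to 254 in siControl and 260 to 289 in siLSD1, so that no group overlapped with another. Against this order, Hand2 fell in siLSD1 from 51.7 to 39.8 units (log2 difference -0.38, limma adjusted p = 0.00698). Dbh was also lower there (-0.30, adjusted p = 0.338), and Gata3 was higher in siMyT1 (0.36, adjusted p = 0.101). The remaining markers had the sign of the sums, with Gata2 (-0.06) and Tubb3 (-0.02) nearly level in siMyT1. The 3' to 5' ratio of the actin control probe sets was 1.11 ± 0.0049 (SD, n = 3) in siMyT1, 1.17 ± 0.017 in siControl and 1.17 ± 0.054 in siLSD1. That of Gapdh was 0.796 ± 0.0082, 0.785 ± 0.0092 and 0.798 ± 0.017 in the same order. Their part in the differences of Gadd45a, Gadd45b and Zmat3 was not tested. In bulk RNA, more cells with a transcript and more transcript per cell cannot be told apart.

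Gadd45b, an effector of NF-kappaB and TGF-beta signalling, was dim and lower in siLSD1 by all 3 of its probe sets, of which 1 passed the test. The probe set with the highest mean, 1449773_s_at, measured 0.539, 0.604 and 0.597 units in siControl and 0.352, 0.275 and 0.330 in siLSD1. Its siMyT1 values were 0.637, 0.810 and 0.538. The siLSD1 arrays lay below all others, and the siMyT1 and siControl arrays overlapped. The log2 difference of siLSD1 from siControl was -0.59 (SE 0.18, adjusted p = 0.0572), that of siMyT1 0.13 (adjusted p = 0.762), and that between the knockdowns 0.73 (SE 0.18, adjusted p = 0.0123). The last call ended without siLSD1 replicate 2 (adjusted p = 0.0544).

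The second Gadd45b probe set, 1450971_at, measured 0.671, 0.454 and 0.496 units in siControl and 0.212, 0.183 and 0.159 in siLSD1. It fell to 34.2% of control (log2 difference -0.94, SE 0.21, limma adjusted p = 0.0221 over all probe sets, of which 5.05% were called in this comparison). The third, 1420197_at, differed by -0.28 (adjusted p = 0.544 over all probe sets), with overlapping arrays. These 3 probe sets lie close to the pseudocount, where log2 differences understate the change. The siLSD1 difference passed the threshold for the gene in 9 of 21 alternatives. Among these, its probe sets were averaged (-0.61, adjusted p = 0.0216) or the probe set 1450971_at stood for it (adjusted p = 0.0119). It also passed after quantile normalization (adjusted p = 0.0457) and with array weights (adjusted p = 0.0258). It did not pass after median centring (adjusted p = 0.0651) or when any single siControl or siLSD1 array was left out (adjusted p from 0.102 to 0.176).

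Gadd45g, the family member tied to neural development and differentiation, differed between the knockdowns and passed the test against control in neither. After quantile normalization its siMyT1 difference from control did pass (0.23, limma adjusted p = 0.0438). Its probe set 1453851_a_at measured 3.10, 3.04 and 2.76 units in siControl, 3.25, 3.84 and 3.81 in siMyT1 and 2.90, 2.52 and 2.85 in siLSD1. The siMyT1 arrays lay above the other 6, and siLSD1 overlapped with siControl. The log2 difference was 0.27 in siMyT1 (SE 0.10, 95% confidence interval 0.06 to 0.49, adjusted p = 0.128) and -0.10 in siLSD1 (95% confidence interval -0.32 to 0.12, adjusted p = 0.666). Between siMyT1 and siLSD1 it was 0.37 (SE 0.10, adjusted p = 0.0192). That call ended with median centring (adjusted p = 0.0827) and without siMyT1 replicate 2 (adjusted p = 0.0719), siMyT1 replicate 3 (adjusted p = 0.0826) or siLSD1 replicate 2 (adjusted p = 0.0750).

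The 3 paralogues thus shared a direction between the knockdowns, each higher in siMyT1 than in siLSD1, under the deposited scaling, quantile normalization and median centring alike. Most genes had this direction under the deposited scaling, 11874 of 18193. Against control, Gadd45a passed in siMyT1 alone and Gadd45b in siLSD1 by 1 probe set alone, and whether the paralogues differed from each other was not tested. By Pearson correlation of log2 values over the 9 arrays, a description over arrays that share the 3 treatments, Gadd45a followed Gadd45g (r = 0.87) more closely than Gadd45b (r = 0.68).

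Zmat3, which encodes an RNA-binding zinc finger protein of the p53 response, was the only 1 of the 8 that passed the test in siLSD1 against siControl, where it fell (8.90% of all genes passed, 3.97% as higher and 4.93% as lower). Its single probe set 1449353_at measured 5.24, 5.33 and 4.92 units in siControl, 3.94, 4.55 and 4.21 in siMyT1 and 3.18, 3.08 and 3.31 in siLSD1. The groups did not overlap and stood in the order siControl, siMyT1, siLSD1. The mean fell from 5.16 ± 0.21 (SD, n = 3) to 3.19 ± 0.11 in siLSD1, or 61.9% of control (log2 difference -0.66, SE 0.08, adjusted p = 0.000195). In siMyT1 it was 4.23 ± 0.31, a log2 difference of -0.28 that did not pass (SE 0.08, adjusted p = 0.0579). That difference passed after quantile normalization (-0.33, adjusted p = 0.00226), median centring (adjusted p = 0.0247), a filter on dim genes (adjusted p = 0.0396) and with array weights (adjusted p = 0.0328). Between the knockdowns Zmat3 differed by 0.38 (SE 0.08, adjusted p = 0.00505).

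Fas, the death receptor of the extrinsic apoptosis pathway, was near the bottom of the scale, with 6 of 9 arrays below the pseudocount. Its probe set 1460251_at measured 0.138, 0.152 and 0.172 units in siControl, 0.291, 0.282 and 0.311 in siMyT1 and 0.0266, 0.135 and 0.0334 in siLSD1. The groups did not overlap, with siMyT1 highest and siLSD1 lowest, although siLSD1 replicate 2 lay close to control. Neither difference from control passed the test, at 0.49 in siMyT1 (SE 0.17, adjusted p = 0.120) and -0.45 in siLSD1 (SE 0.17, adjusted p = 0.150). The knockdowns differed by 0.93 (SE 0.17, adjusted p = 0.00222), and this difference ranged from 0.43 with a pseudocount of 100 to 2.40 with a pseudocount of 1, so its size is poorly determined. Without siLSD1 replicate 2 the siLSD1 difference from control was -0.63 (adjusted p = 0.0424).

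**Figure D2:**
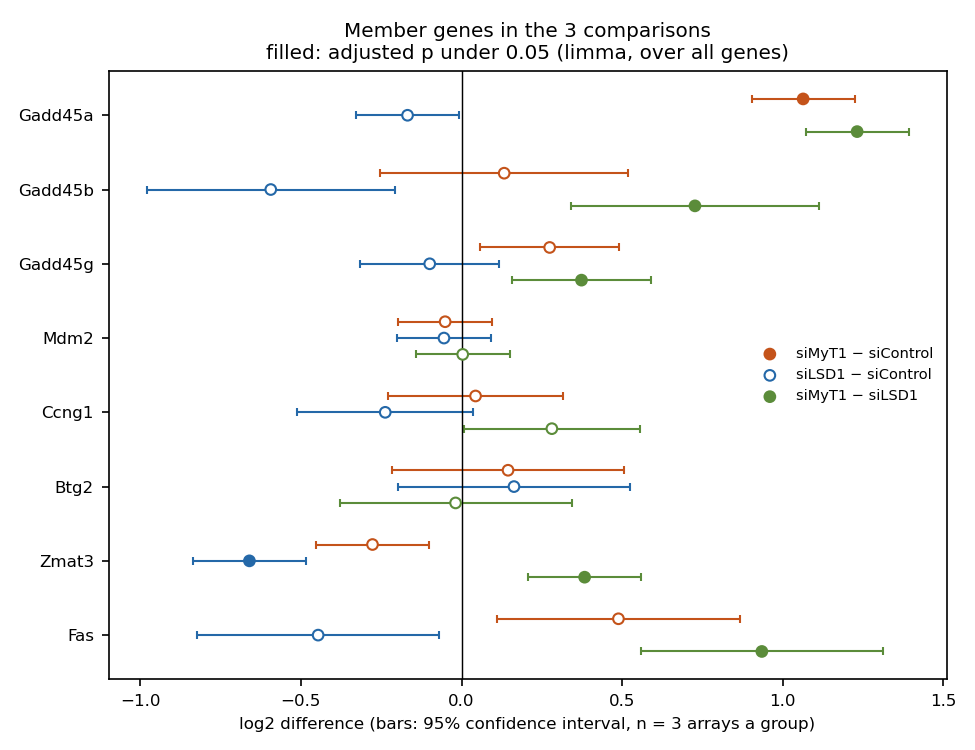
Log2 differences (horizontal axis) of the 8 genes in the 3 comparisons, with 95% confidence intervals and filled points where the limma adjusted p over all genes was under 0.05. Gadd45a in siMyT1 and Zmat3 in siLSD1 are the filled points among differences from siControl, and 5 genes are filled between siMyT1 and siLSD1.

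Mdm2, the ubiquitin ligase that holds p53 in check, did not differ detectably, and its bright probe sets bounded any change narrowly. The probe set 1423605_a_at measured 18.3, 17.9 and 17.0 units in siControl, 16.1, 16.5 and 18.6 in siMyT1 and 17.9, 16.3 and 17.0 in siLSD1. All 3 groups overlapped. The log2 difference was -0.05 in both comparisons with control, with 95% confidence intervals from -0.20 to 0.09 in siMyT1 and in siLSD1 (adjusted p = 0.755 and 0.739). A second bright probe set, 1427718_a_at, differed by 0.0027 in siMyT1 and 0.0026 in siLSD1. The third, 1457929_at, lay below the pseudocount on 8 of 9 arrays and differed by -0.22 and -0.46, neither past the test.

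Ccng1, which encodes cyclin G1, a p53 target that works with protein phosphatase 2A on Mdm2, had 3 probe sets whose differences in siLSD1 were not of 1 sign. The probe set 1450016_at measured 3.78, 3.27 and 2.79 units in siControl, 3.07, 3.92 and 3.15 in siMyT1 and 3.03, 2.52 and 2.67 in siLSD1. Control and siLSD1 arrays overlapped, and the siMyT1 arrays lay above those of siLSD1. Its log2 difference was 0.04 in siMyT1 (95% confidence interval -0.23 to 0.32, adjusted p = 0.905) and -0.24 in siLSD1 (95% confidence interval -0.51 to 0.04, adjusted p = 0.319). The probe sets 1420827_a_at and 1450017_at differed by 0.08 and 0.23 in siLSD1, in the other direction, and none of the 3 passed the test over all probe sets.

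Btg2, an antiproliferative cofactor of mRNA deadenylation expressed at the onset of neurogenesis, did not pass in any comparison. The probe set 1416250_at measured 1.69, 1.76 and 1.53 units in siControl, 1.53, 2.55 and 1.62 in siMyT1 and 1.68, 1.98 and 2.01 in siLSD1. The groups overlapped, and siMyT1 replicate 2 stood above the rest of its group. The differences from control were 0.14 in siMyT1 (95% confidence interval -0.22 to 0.51, adjusted p = 0.711) and 0.16 in siLSD1 (95% confidence interval -0.20 to 0.52, adjusted p = 0.672). The other probe set, 1448272_at, differed by 0.11 and -0.08.

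**Figure D3:**
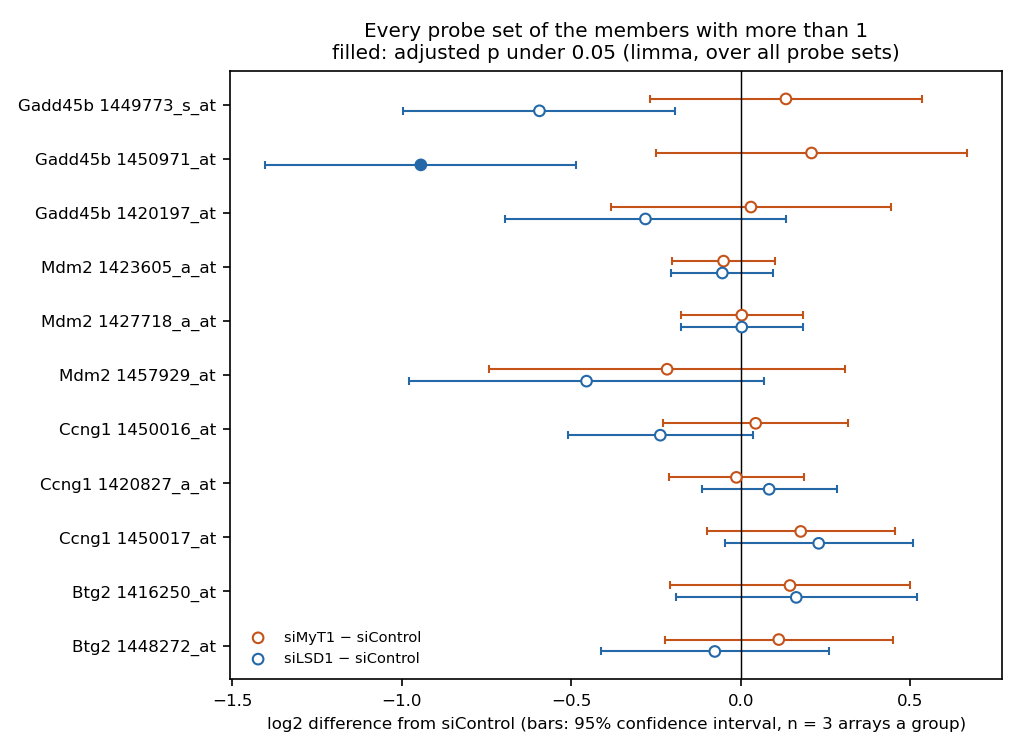
Log2 differences from siControl (horizontal axis) for each of the 11 probe sets of Gadd45b, Mdm2, Ccng1 and Btg2, with 95% confidence intervals and filled points where the limma adjusted p over all probe sets was under 0.05. The Gadd45b probe set 1450971_at in siLSD1 is the filled point, at -0.94, and the Ccng1 probe sets lie on both sides of 0 in siLSD1.

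In sum over the set, 1 of 8 genes rose and 0 fell in siMyT1 against siControl, where 7.41% of all genes were called and 5.12% were higher. At an unadjusted p under 0.05, 4 of the 8 would pass, beside 20.4% of all genes. In siLSD1 1 of 8 fell and 0 rose, where 8.90% of all genes were called. At an unadjusted p under 0.05 these were 4 of 8, beside 21.1% of all genes. The groups did not overlap for 4 of 8 genes in siMyT1 (3 higher and 1 lower), where 24.0% of all genes showed this, and for 4 of 8 in siLSD1 (all lower), where 26.8% did. The median log2 difference of the 8 was 0.14 in siMyT1, beside 0.05 over all genes, and -0.20 in siLSD1, beside -0.03. The 2 comparisons share their control arrays. The count in siLSD1 became 2 without siMyT1 replicate 2, when Gadd45b passed, and 2 without siLSD1 replicate 2, when Fas passed.

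Between siMyT1 and siLSD1, 5 of 8 genes were higher in siMyT1 and 0 lower, namely Gadd45a, Gadd45b, Gadd45g, Zmat3 and Fas. In this comparison 18.8% of all genes were called, 13.2% higher and 5.58% lower in siMyT1, and 6 of 8 did not overlap, where 33.0% of all genes did not. The median of the 8 was 0.38, beside 0.09 over all genes. Median centring lowered all differences of this comparison by 0.13, which left 4 genes called, all but Gadd45g. Without siLSD1 replicate 2 the count was 3. In a separate fit of the genes above the median level, 6 of the 8 were tested. There 2 were called in siMyT1 against siControl, 1 in siLSD1 against siControl and 3 between the knockdowns. The fit over all genes called 13.1%, 16.5% and 32.6% of the genes above that level. These shares and counts thus come from different fits. In the fit over all genes, Zmat3 did not pass in siMyT1 against siControl (limma adjusted p = 0.0579). Over all probe sets, 1, 2 and 6 of the 15 were called, beside 3.24%, 5.05% and 11.2% of all.

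Of 30 other p53 targets listed with earlier results of these data known, 28 were measured. In siMyT1 4 rose and 0 fell, beside 7.41% of all genes called and 13.1% of the genes above the median level. The median difference was 0.17, beside 0.05 over all genes. Ephx1, a microsomal epoxide hydrolase, rose from 5.42 ± 0.035 to 8.40 ± 0.48 units (SD, n = 3; log2 difference 0.61, SE 0.07, adjusted p = 0.000346). Polk, a DNA polymerase that copies past lesions, rose by 0.45 (SE 0.08, adjusted p = 0.0036). Xpc, the damage sensor of nucleotide excision repair, rose by 0.51 (adjusted p = 0.0156), and Rrm2b, the p53-inducible subunit of ribonucleotide reductase, by 0.31 (adjusted p = 0.0385). The call of Xpc was lost when siMyT1 replicate 2, siControl replicate 1 or siControl replicate 3 was left out, with an adjusted p of at most 0.0632. That of Rrm2b ended without any siControl replicate, siMyT1 replicate 2 or 3 or siLSD1 replicate 3 (adjusted p up to 0.148). It also ended with median centring, the mean of all probe sets, all probe sets in 1 fit, the compared groups alone, no intensity trend or a replicate block (adjusted p up to 0.119). The count of the list was 2 without siControl replicate 1, siControl replicate 3 or siMyT1 replicate 2, and 8 with array weights, all higher. Cdkn1a, the p21 inhibitor of cyclin-dependent kinases, was singled out after its values were seen and measured 9.16 ± 0.13 units in siControl, 9.66 ± 1.0 in siMyT1 and 9.27 ± 1.2 in siLSD1 (log2 differences 0.07 and 0.01, adjusted p = 0.754 and 0.978).

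In siLSD1, 2 of the 28 rose and 2 fell, beside 8.90% of all genes called and 16.5% of the genes above the median level. The median was -0.03, as over all genes (-0.03). Phlda3, a repressor of Akt signalling, rose from 9.69 ± 0.53 to 15.6 ± 0.24 units (log2 difference 0.68, SE 0.07, adjusted p = 6.39e-05), and Bbc3, the proapoptotic BH3-only protein PUMA, by 0.34 (adjusted p = 0.0396). Ei24, an endoplasmic reticulum protein, fell from 10.9 ± 0.60 to 7.92 ± 0.21 (log2 difference -0.45, SE 0.06, adjusted p = 0.000578), and Sesn1, a sestrin of stress and nutrient signalling, fell by 0.48 (adjusted p = 0.0214). The Sesn1 call ended without any siControl replicate or siLSD1 replicate 2 or 3 (adjusted p up to 0.0786). It also ended with the mean of its probe sets (-0.36, adjusted p = 0.0707), with probe sets without suffix (-0.40, adjusted p = 0.0962) and with no intensity trend (adjusted p = 0.0513). That of Bbc3 ended without siControl replicate 1 or 3, siMyT1 replicate 3 or any siLSD1 replicate, and with a replicate block, all probe sets in 1 fit or no intensity trend (adjusted p up to 0.129). The count was 2 without siControl replicate 1, siControl replicate 3 or siLSD1 replicate 3 and with no intensity trend, 7 after median centring and with array weights, and 8 after quantile normalization and among genes above the median level. Between the knockdowns 9 were higher in siMyT1 and 2 lower, beside 18.8% of all genes called. The smallest adjusted p there were those of Phlda3 (log2 difference -0.49), Polk (0.45), Ei24 (0.33) and Ephx1 (0.36), of which Ei24 and Ephx1 did not pass after median centring (adjusted p = 0.109 and 0.0776). The count of this list fell to 6 after median centring and without siMyT1 replicate 3, and to 7 without siLSD1 replicate 2.

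Of 25 listed regulators of p53, 24 were measured. Setd7, a lysine methyltransferase with p53 among its substrates, rose in both knockdowns, from 6.42 ± 0.57 units to 8.69 ± 0.084 in siMyT1 (log2 difference 0.43, adjusted p = 0.00379) and 10.3 ± 0.60 in siLSD1 (0.67, adjusted p = 7.58e-05), and neither call held when its probe sets were averaged (adjusted p = 0.490 and 0.149). Chek2, the kinase that phosphorylates p53 after DNA breaks, rose in siMyT1 by 0.36 (adjusted p = 0.0306), a call that ended without siControl replicate 1 or 3, siMyT1 replicate 2 or 3 or siLSD1 replicate 3, and with all probe sets in 1 fit, the compared groups alone or no intensity trend (adjusted p up to 0.116). Cop1, an E3 ubiquitin ligase of p53, fell in siLSD1 from 33.7 ± 0.74 to 21.9 ± 1.3 units (log2 difference -0.62, SE 0.06, adjusted p = 3.62e-05). In all 2 of 24 rose and 0 fell in siMyT1, beside 7.41% of all genes called. The median was -0.0045, beside 0.05 over all genes. In siLSD1 1 rose and 1 fell, beside 8.90% of all genes called, with a median of -0.05, beside -0.03 over all genes. The siLSD1 count was 4 after median centring (3 higher and 1 lower) and among genes above the median level, 5 after quantile normalization and 6 with array weights. The siMyT1 count was 1 without siControl replicate 1 or 3, siMyT1 replicate 2 or 3 or siLSD1 replicate 3, and 5 after quantile normalization. It was also 1 with the mean of all probe sets, all probe sets in 1 fit, the compared groups alone or no intensity trend. Between the knockdowns 4 were higher in siMyT1 and 2 lower, beside 18.8% of all genes called, with Cop1 at 0.74, Chek2 at 0.55 and the deacetylase Sirt1 at 0.49. Mdm4, the partner of Mdm2 that inhibits p53, differed there by -0.33 (adjusted p = 0.0197) and turned to 0.13 when its probe sets were averaged (adjusted p = 0.545). The count was 2 without siMyT1 replicate 3 or siLSD1 replicate 3 and with no intensity trend, when Cop1 and Chek2 passed and Sirt1, Mdm4, Setd7 and the damage kinase Atr, singled out after its values were seen, did not (adjusted p up to 0.118).

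Of 12 listed partners of Gadd45 proteins, 9 were measured, and 0 passed in siMyT1 against siControl by limma, beside 7.41% of all genes. Their median was 0.12, beside 0.05 over all genes. At an unadjusted p under 0.05 these were 3 of 9, beside 20.4% of all genes. The count was 2 without siMyT1 replicate 1, and 1 after quantile normalization, among genes above the median level or with array weights. In siLSD1 2 of 9 fell and 0 rose, beside 8.90% of all genes called and 4.93% lower. Pcna, the sliding clamp of DNA replication, fell from 70.2 ± 1.3 to 53.2 ± 5.1 units (log2 difference -0.40, SE 0.08, adjusted p = 0.00709), and Cdk1, the mitotic kinase, from 31.2 ± 0.67 to 25.6 ± 1.7 (-0.29, SE 0.07, adjusted p = 0.0147). After median centring neither passed (adjusted p = 0.142 and 0.223), and the call of Cdk1 also ended without siControl replicate 1 or siLSD1 replicate 3 (adjusted p up to 0.0694) and with no intensity trend (adjusted p = 0.0804), each of which left 1. Between the knockdowns 3 were higher in siMyT1, beside 18.8% of all genes called, namely Cdk1 (0.42), Pcna (0.53) and Ing1 (0.32). Ing1 did not pass after median centring (adjusted p = 0.182), with the mean of its probe sets (adjusted p = 0.0700) or with probe sets without suffix (adjusted p = 0.193).

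**Figure D4:**
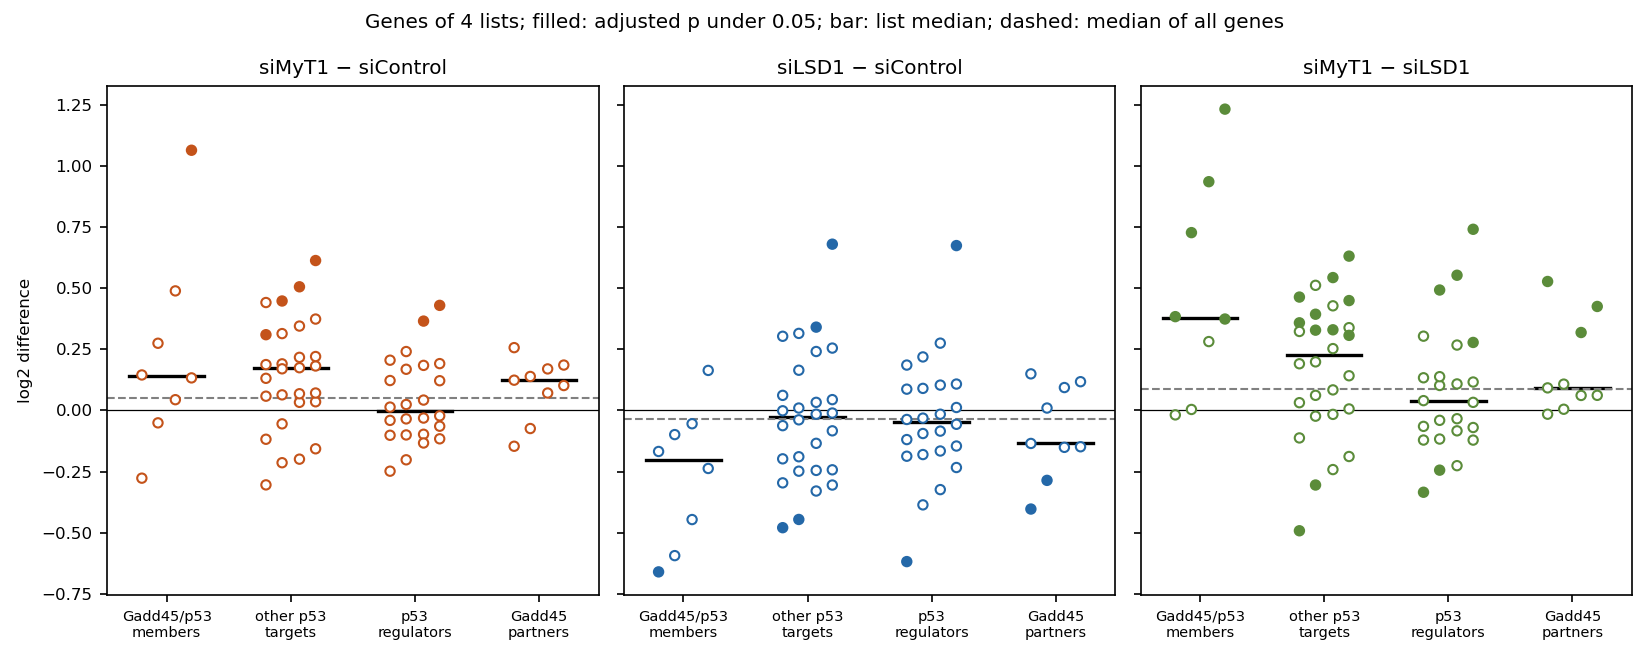
Log2 differences (vertical axis) of the measured genes of 4 lists in each comparison, with filled points where the limma adjusted p over all genes was under 0.05, bars at each list's median and a dashed line at the median of all genes. Gadd45a, at 1.06 in siMyT1 and 1.23 between the knockdowns, is the highest point of those panels, and the medians of the other p53 targets are 0.17 in siMyT1 and -0.03 in siLSD1.

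Among 3546 other genes that differed over the 3 groups, those whose log2 values over the 9 arrays followed Gadd45a most closely were Tgif2, Slc9a3r1, Nabp1, Nmi and Rida, with Pearson r from 0.98 to 0.99. Tgif2 is a homeodomain repressor of TGF-beta responses and Nabp1 a single-stranded DNA-binding protein of the damage response. For Gadd45b they were Ercc6l, Gkap1, Rtn4rl1, Sass6 and Hdac4 (r from 0.97 to 0.98), which include a mitotic DNA translocase and a centriole protein. For Gadd45g they were Gpsm2, Ttc1, Haus4, Wdr43 and Ramp2 (r of 0.99 for each), among them spindle proteins. No gene stood in more than 1 of these 3 groups of 5. These correlations describe arrays that share 3 treatments and carry no test.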

How the data were processed

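The authors deposited 1-colour intensities on a linear scale, covering 45101 probe sets on 9 arrays. How they were summarised and scaled is not given in the sources used here, so what 1 unit stands for is unknown. Probe sets were named from the platform annotation, and 34945 non-control probe sets had 1 gene symbol, 932 listed ones had several, and the rest are unnamed here. The probe set with the highest mean stood for a gene. Values were taken as log2(intensity + 0.196 units), a pseudocount of 32 after 1 constant had set the 2% trimmed mean to 500. The scaling of the deposited values was kept, although array medians differed by up to 0.32 on the log2 scale, and quantile normalization and median centring were run as alternatives. Group means of all 9 arrays were compared with limma 3.58.1 in R 4.3.3 (intensity trend, two-sided, Benjamini-Hochberg over 18193 genes, threshold 0.05), and again over all 45037 non-control probe sets. With 3 arrays against 3 an exact permutation test cannot go below p = 0.1, and the number of arrays limits the precision. On simulated arrays of the 18193 genes, the test recovered 82% of 1.5-fold changes and 98% of 2-fold changes in siMyT1 against siControl. In siLSD1 against siControl it recovered 79% and 97%, and the 2 comparisons had 5 and 4 false calls. Only 100 genes were changed at each fold, fewer than the 1348 and 1619 called in the data, so recovery in the data may differ. The changed genes were all drawn from those above the median level. Recovery was therefore not measured for dimmer genes, Gadd45b and Fas among them. Named were all members, the siRNA targets, up to 4 called genes per list and comparison, and the 5 genes most correlated with each Gadd45 gene. Members, lists and tests were chosen with earlier results of these data known.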

Additional observations from a re-analysis of the deposited data

How the results depend on the processing

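Each comparison was recomputed under 13 other settings and without each of the 9 arrays. The rise of Gadd45a in siMyT1, its excess over siLSD1 and the fall of Zmat3 in siLSD1 passed under all 22. Of the 8 genes, 1 was called in siMyT1 against siControl, and 3 were after quantile normalization, and 2 after median centring, among genes above the median level (6 measured) and with array weights, with 1 to 1 when single arrays were left out. In siLSD1 1 was called, and 2 were after quantile normalization, with a pseudocount of 100, with the mean of all probe sets, with probe sets without suffix, with the compared groups alone, without an intensity trend and with robust variance, and 3 with array weights, with 1 to 2 when single arrays were left out. Between the knockdowns 5 were called, 3 among genes above the median level, and 3 to 5 when single arrays were left out. Mdm4 between the knockdowns turned from -0.33 to 0.13 with the mean of all probe sets and to 0.29 with probe sets without suffix. Calls over all genes ranged from 650 to 2460 in siMyT1 (1348 as reported), from 965 to 2966 in siLSD1 (1619) and from 2331 to 4331 between the knockdowns (3423). The causes of these shifts were not tested. Same-numbered replicates did not deviate together (0 of 9 pairs with a correlation over 0.1), and the replicate block left 1, 1 and 5 members called, with 935, 1259 and 2927 genes in all. Fas, Gadd45b and 1 Mdm2 probe set lie near or below the pseudocount, which limits their sizes.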
